A study of Mus musculus with 743 samples.

Results

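Pmp22 and its relatives Emp1, Emp2 and Emp3 were followed through 621 single Schwann cells (SCs) of the newborn mouse sciatic nerve, as 4 genes of 25700 in the deposited table, of which 15940 had a read in these cells. The genes were selected by name, as a family, and earlier results of these data were known at that time. The same holds for the gene lists used below. The adjusted p values of the members and the counts per list are therefore not from a choice blind to the data. The cells were split by the measured levels of 3 other genes, so those 3 are given no test. Cycling cells had Mki67 and Top2a together at 50 or more CPM (counts scaled to a total of 1e+06 reads per cell), promyelinating cells were not cycling and had Ncmap at 50 CPM or more, and other cells met neither condition.

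The pups were P0Cre-/+, ReYFP Tg/+ and βAct-DsRed Tg/+ on a C57bl/6J background at postnatal day 1 (P1), so all cells shared the same transgenes, age and nerve, and no untreated or mutant group was involved. The Cre recombinase is driven by a promoter active in the SC lineage and switches on eYFP there, and eYFP-positive cells were sorted singly into 384-well plates for full-length Smart-Seq2 libraries. There were 2 plates, each from its own cell suspension of male and female pups pooled together, and the plate is the replicate throughout (n = 2). Of 743 wells, 621 had at least 1500 detected genes: on plates 1 and 2, 53 and 57 were cycling, 59 and 60 promyelinating, and 175 and 217 other cells.

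PMP22 is a small membrane protein with 4 membrane-spanning stretches that sits in compact myelin of peripheral nerve. Its dosage is critical in man, since an extra gene copy causes the demyelinating neuropathy CMT1A and loss of a copy causes hereditary neuropathy with liability to pressure palsies. The epithelial membrane proteins EMP1, EMP2 and EMP3 have the same fold and are made in many dividing and epithelial cell types, where they have been tied to growth control and, for EMP2, to integrin signalling.

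Median depth of the kept cells was 928401 reads on plate 1 and 791056 on plate 2, with 3005 and 2956 detected genes. By class, the median was 901677 and 701288 reads in cycling, 905794 and 831680 in promyelinating, and 950150 and 795029 in other cells. More genes were detected in cycling (3425 and 3477) and promyelinating cells (3690 and 3550) than in other cells (2775 and 2819). The SC markers Sox10, S100b and Erbb3 together stood at 443 to 757 CPM in every class and plate, and 88.8% to 98.3% of cells per class held one of them at 50 CPM or more. Summed markers of endothelial, fibroblast-like, perineurial, immune and mural cells did not exceed 56.8 CPM for any list in any class and plate, with perineurial markers at 39.4 and 39.7 CPM in promyelinating against 18.7 and 22.3 CPM in other cells. Of these markers, the mural gene Pdgfrb passed with edgeR. It stood at 43.7 and 13.8 CPM in promyelinating, 20.7 and 37.8 CPM in other and 0 reads in cycling cells (edgeR adjusted p = 0.00338 and 0.00976 for cycling against promyelinating and other cells). With DESeq2 the fibroblast-like gene Dcn passed in the same 2 comparisons, and the perineurial gene Moxd1 was lower in promyelinating than in either other class. The part of such cells in the levels of the members was not tested. No pair of wells had identical values.

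In the GRCm38 annotation (GENCODE M21), Pmp22 (ENSMUSG00000018217) lies at chr11:63128982-63159547 on the plus strand, Emp1 (ENSMUSG00000030208) at chr6:135362545-135383173 on the plus strand, Emp2 (ENSMUSG00000022505) at chr16:10281749-10313968 on the minus strand and Emp3 (ENSMUSG00000040212) at chr7:45918023-45921404 on the minus strand. No annotated gene overlaps any of the 4, so their reads could not be split with an overlapping neighbour. The stretches before the first RefSeq starts of Pmp22 and Emp1, the members with the largest opposite changes below, are shown here (RefSeq, GRCm38.p6, plus strand, 5′ to 3′), with a match to a searched motif in capitals. The Pmp22 stretch, chr11:63128732-63128981, holds no annotated exon.
Pmp22: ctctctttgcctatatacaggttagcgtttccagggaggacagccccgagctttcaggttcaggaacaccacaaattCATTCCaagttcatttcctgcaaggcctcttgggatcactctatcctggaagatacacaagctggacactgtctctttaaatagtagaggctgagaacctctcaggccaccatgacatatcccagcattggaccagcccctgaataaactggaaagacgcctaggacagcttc
Emp1: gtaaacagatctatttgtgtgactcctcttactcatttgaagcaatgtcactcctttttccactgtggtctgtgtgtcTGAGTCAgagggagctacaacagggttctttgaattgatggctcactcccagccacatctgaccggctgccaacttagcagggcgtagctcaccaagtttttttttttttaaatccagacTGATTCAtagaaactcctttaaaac

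The Emp1 stretch, chr6:135362708-135362930, lies inside the GENCODE span of Emp1, which starts at chr6:135362545. It ends with 27 bases that an alternative Emp1 transcript reads as exon. The searched window starts at chr6:135362681, and its bases before the printed stretch are not shown. Capitals in the Emp1 stretch mark 2 matches to the AP-1 motif TGANTCA, which reads the same on both strands. They lie 145 and 25 bases before the first RefSeq start, the second within the exon bases. The AP-1 motif was present in 6.75% of all 32851 promoter windows of 250 bases. In Pmp22 the capitals mark 1 match on the minus strand to the TEAD core GGAATG, present in 12.6% of all windows. None of the 9 windows of the members held the other motifs searched on both strands, which were ACAAAG and ACAATG for SOX factors and GCGNGGGCG for EGR factors, and no further match to TGANTCA or GGAATG was found in them. A match is only a run of letters, and binding was not measured.

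Pmp22 was the most abundant member in every class and rose in promyelinating cells. Summed over the cells of a plate, its level was 11463 and 11856 CPM in promyelinating cells, 2052 and 2639 CPM in other cells and 1642 and 1876 CPM in cycling cells. The promyelinating plates stood above all other plate values with no overlap. The promyelinating level was 5.59-fold that of other cells on plate 1 and 4.49-fold on plate 2, and the fitted difference was 2.39 on the log2 scale (SE 0.15, adjusted p = 0.000673 by edgeR). Against cycling cells it was 2.68 (SE 0.16, edgeR adjusted p = 7.75e-05). Cycling and other cells differed by -0.28 (SE 0.15, edgeR adjusted p = 0.565), which did not pass the threshold.

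Few cells lacked Pmp22. It reached 50 CPM in all 119 promyelinating cells, 107 of 110 cycling and 384 of 392 other cells. Within the promyelinating class it still varied, from 845 to 33892 CPM on plate 1 around a median of 10859, and from 2063 to 56462 CPM on plate 2 around a median of 11124. Other cells had medians of 1777 and 2159 CPM, and the highest of them reached 9114 and 16242 CPM, inside the promyelinating range. The cell values of the classes thus overlapped, although the plate values did not.

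Emp1 behaved in the opposite way and was all but missing from promyelinating cells. Its summed level was 69.9 and 63.9 CPM in other cells and 79.6 and 148 CPM in cycling cells, against 0.134 CPM on plate 1 and 0 reads on plate 2 in promyelinating cells. The 7 promyelinating reads came from 3 cells of plate 1, none above 5.31 CPM. With both plates together, 7 reads against 22217 in other cells put Emp1 994-fold lower (95% counting interval 482 to 2472). On plate 1 alone it was 520-fold lower. On plate 2 alone, with the floor set at 3 reads over the class, it was at least 1109-fold lower. The fitted log2 fold change was -9.85 (SE 1.04, edgeR adjusted p = 0.0028) against other and -10.74 (SE 1.07, edgeR adjusted p = 0.000868) against cycling cells, values that depend on how a near-zero count is handled.

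Where Emp1 was present it was patchy. It was found at 50 CPM or more in 31 of 175 and 36 of 217 other cells (17.2% ± 0.795, SD over 2 plates), and in 18 of 53 and 20 of 57 cycling cells (34.5% ± 0.796). In promyelinating cells it was found in 0 of 119. With a floor of 3 cells over both plates, counting error alone allows a share of up to 2.52%. The exact 95% counting intervals reached 6.06% on plate 1 and 5.96% on plate 2. These limits treat cells as independent, although the plate is the replicate. The positive cells had median levels of 269 and 272 CPM among other cells and 178 and 341 CPM among cycling cells. The 3 highest cells held 30.1% and 36.8% of all Emp1 reads of other cells. Despite the larger share of positive cycling cells on both plates, the summed level did not differ between cycling and other cells beyond the spread (log2 fold change 0.89, SE 0.68, edgeR adjusted p = 0.737), since the plates differed, at 1.14-fold and 2.31-fold.

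Emp3 fell in promyelinating cells without being lost. Its summed level was 90.8 and 86.8 CPM there, against 372 and 329 CPM in other and 614 and 444 CPM in cycling cells. These 3 pairs of plate values did not overlap. It was 4.1-fold lower than in other cells on plate 1 and 3.79-fold lower on plate 2 (log2 fold change -1.90, SE 0.25, edgeR adjusted p = 0.00715), and lower than in cycling cells as well (-2.63, SE 0.26, edgeR adjusted p = 0.000716). The excess of cycling over other cells, 0.73 (SE 0.24, edgeR adjusted p = 0.329), did not pass. The share of cells at 50 CPM or more was 40.3% ± 1.90 of promyelinating, 77.9% ± 1.34 of other and 86.4% ± 3.16 of cycling cells (SD, n = 2).

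Emp2, the member tied to integrin signalling, showed the smallest differences. Its summed level was 174 and 177 CPM in promyelinating, 375 and 292 CPM in other and 246 and 281 CPM in cycling cells. Promyelinating values were the lowest on both plates, but the difference from other cells (log2 fold change -0.85, SE 0.23) did not pass with edgeR (adjusted p = 0.153), while it did with DESeq2 (adjusted p = 0.0188). The difference from cycling cells was -0.64 (SE 0.23, edgeR adjusted p = 0.171), and that between cycling and other cells -0.22 (SE 0.23, edgeR adjusted p = 0.851). It reached 50 CPM in 44.6% ± 8.85 of promyelinating, 59.4% ± 6.48 of other and 61.0% ± 1.85 of cycling cells (SD, n = 2). On plate 2, 3 promyelinating cells held 55.4% of the Emp2 reads of that class.

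**Figure D1:**
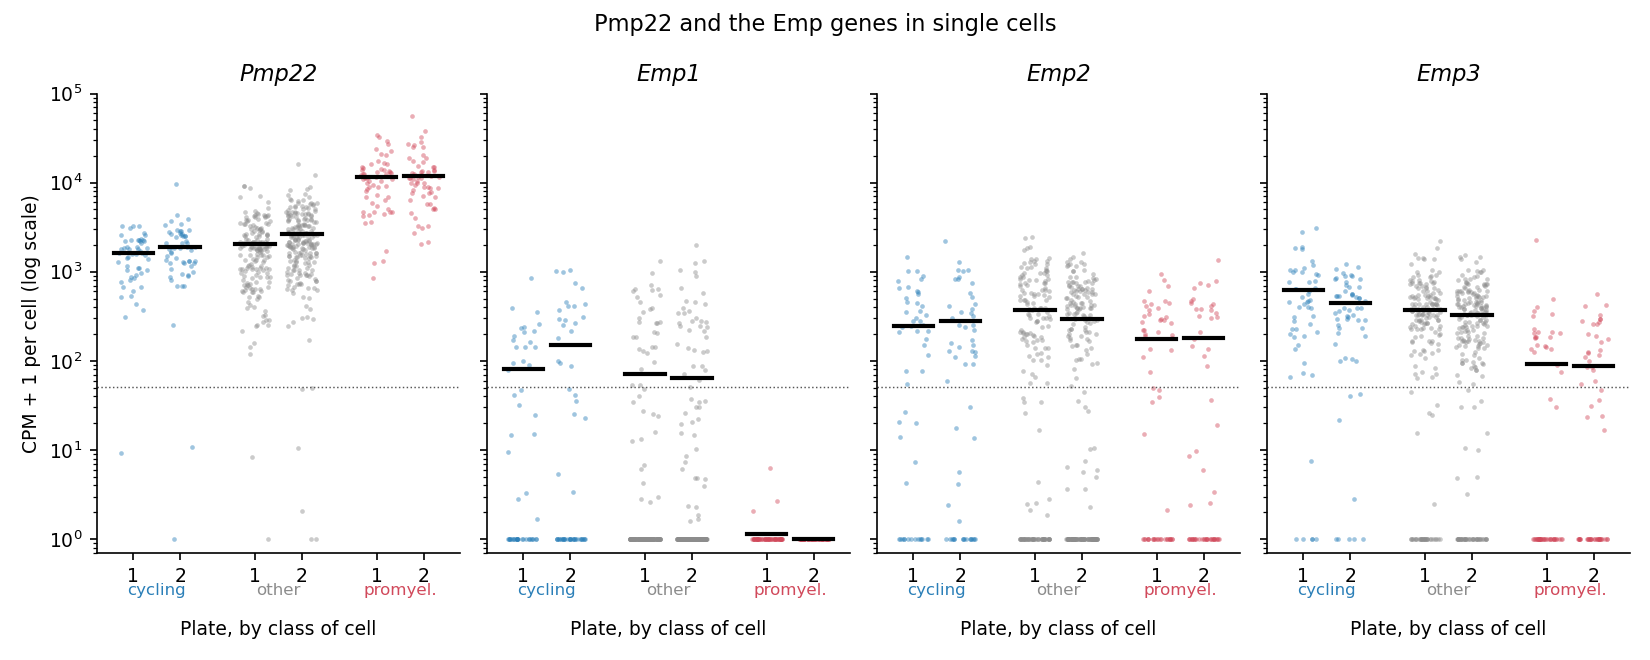
Level of each gene in single cells (CPM + 1, log axis) by class and plate. Points are cells, black bars are the level in the summed reads of a plate and the dotted line is 50 CPM. Pmp22 sits highest in promyelinating cells, at 11463 and 11856 CPM, and Emp1 lies at or near 0 in all 119 of them.

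The share of all tested genes that passed gives the scale for these calls. Of 13292 genes, 238 (1.79%) differed between promyelinating and other cells at an adjusted p under 0.05, 66 higher (0.497%) and 172 lower (1.29%), and the median log2 fold change over all tested genes was -0.07. Among the 4 members, 1 rose, 2 fell and 1 did not pass. Between promyelinating and cycling cells 791 genes passed (5.95%), 282 higher (2.12%) and 509 lower (3.83%), again with 1 member higher and 2 lower. Between cycling and other cells 134 passed (1.01%), 119 higher (0.895%) and 15 lower (0.113%), with 0 of the 4 members among them by edgeR, 1 at an unadjusted p under 0.05 (Emp3) and 0 by DESeq2.

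**Figure D2:**
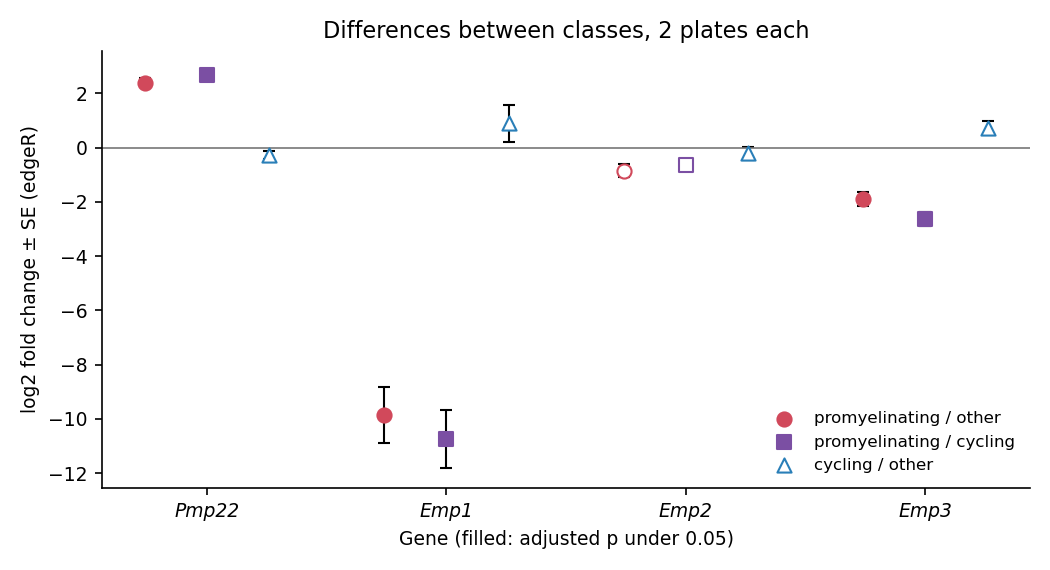
Fitted log2 fold change with its SE for each gene in the 3 comparisons of classes, 2 plates per class. Filled symbols passed an adjusted p of 0.05. Pmp22 was higher by 2.39 and 2.68 in promyelinating cells, Emp3 lower by values of -1.90 and -2.63, and Emp2 passed in none.

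Because a longer transcript gives more reads, levels were compared between genes only per kilobase of exon. On this scale, CPM per kilobase, Pmp22 stood at 4870 and 5037 in promyelinating cells, against 84.8 and 81 for Emp3, 20.1 and 20.5 for Emp2 and 0.0226 and 0 for Emp1. In other cells the order was the same, with Pmp22 at 872 and 1121, Emp3 at 348 and 307, Emp2 at 43.4 and 33.8, and Emp1 at 11.8 and 10.8. In cycling cells Emp3 came closest to Pmp22, at 574 and 415 against 697 and 797, and Emp2 (28.4 and 32.5) and Emp1 (13.4 and 24.9) were far below. No neighbours in these orders overlapped over the 2 plates.

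Cell by cell, the gene with the highest level per kilobase was Pmp22 in all 119 promyelinating cells. It led in 133 of 175 and 186 of 217 other cells, with Emp3 leading in 41 and 30 of the rest. In cycling cells Pmp22 led in 33 of 53 and 46 of 57, and Emp3 in 20 and 10. Emp1 led in 1 cycling and 2 other cells, and Emp2 in 0. The median cell drew 99% of the family's reads per kilobase from Pmp22 in promyelinating, 72.2% in other and 60.3% in cycling cells. With the longest coding transcript as the length, a choice made after seeing the data, Emp2 led in 5 other cells and the remaining leads were Pmp22 in 309, Emp3 in 76 and Emp1 in 2.

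Whether the genes excluded each other within cells was examined next, as a description across cells with no test, since cells of a plate are not replicates. Outside the promyelinating class most Emp1-positive cells also had Pmp22. Of the 67 other cells positive for Emp1, 65 were also positive for Pmp22, and of the 38 cycling cells positive for Emp1, 36 were. Only 8 other cells lacked Pmp22 at 50 CPM, 2 on plate 1 and 6 on plate 2, so the shares of Emp-positive cells among them, 2 of 8 for Emp1, 4 of 8 for Emp2 and 7 of 8 for Emp3, could not be read further.

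A split at the median Pmp22 level of each plate and class, chosen after seeing the data, gave larger groups. Among other cells, Emp1 was positive in 17 of 88 cells above and 14 of 87 below the median on plate 1, and in 20 of 109 and 16 of 108 on plate 2. The share above the median was thus higher by 3.23 percentage points on plate 1 and 3.53 on plate 2. These differences rest on few cells, and their counting error was not estimated. For Emp2 the share above the median was higher by 6.13 points on plate 1 and 9.63 points on plate 2. For Emp3 the sign differed between plates, at 8.24 and -3.47 points. The correlation of Pmp22 with Emp1 across other cells, on log2(CPM + 1), was 0.09 over 175 and 0.02 over 217 cells. Over all cells pooled it was -0.12 over 287 and -0.14 over 334 cells, and that of Pmp22 with Emp3 -0.29 and -0.22, values that include the differences between classes.

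Cells of like Pmp22 level could be compared across classes. At 2500 to 5000 CPM of Pmp22, Emp1 was positive in 9 of 23 cycling, 23 of 111 other and 0 of 15 promyelinating cells. At 5000 to 10000 CPM it was positive in 0 of 1 cycling, 4 of 30 other and 0 of 34 promyelinating cells. The 5 bins of Pmp22 level in other cells held 18.9%, 14.3%, 20.7%, 13.3% and 0% Emp1-positive cells from the lowest to the highest, the last with 2 cells only. At these shared Pmp22 levels no promyelinating cell was Emp1-positive, although these counts of 0 rest on few cells.

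Emp3 took another course. In promyelinating cells it was positive in 0 of 1 and 1 of 5 cells in the thinly filled bins below 1000 and at 1000 to 2500 CPM of Pmp22, and then positive in 10 of 15 cells at 2500 to 5000 CPM of Pmp22, 17 of 34 at 5000 to 10000 CPM and 20 of 64 at 10000 CPM or more. From 2500 CPM upward both plates had the same order, at 66.7%, 50% and 28.1% on plate 1. On plate 2 the shares were 66.7%, 50% and 34.4%. The first of these bins held only 9 and 6 cells. Over all promyelinating cells the correlation of Pmp22 with Emp3, on log2(CPM + 1), was weak, at -0.14 and -0.07. By rank it was -0.25 and -0.16. Promyelinating cells with Emp3 had a lower median Pmp22 level than those without, 8466 against 12195 CPM on plate 1 and 9391 against 11301 CPM on plate 2. Their median depth was 905794 against 907134 reads and 896237 against 815629 reads. Emp2 did not follow this order, at 8 of 15, 12 of 34 and 31 of 64 cells.

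**Figure D3:**
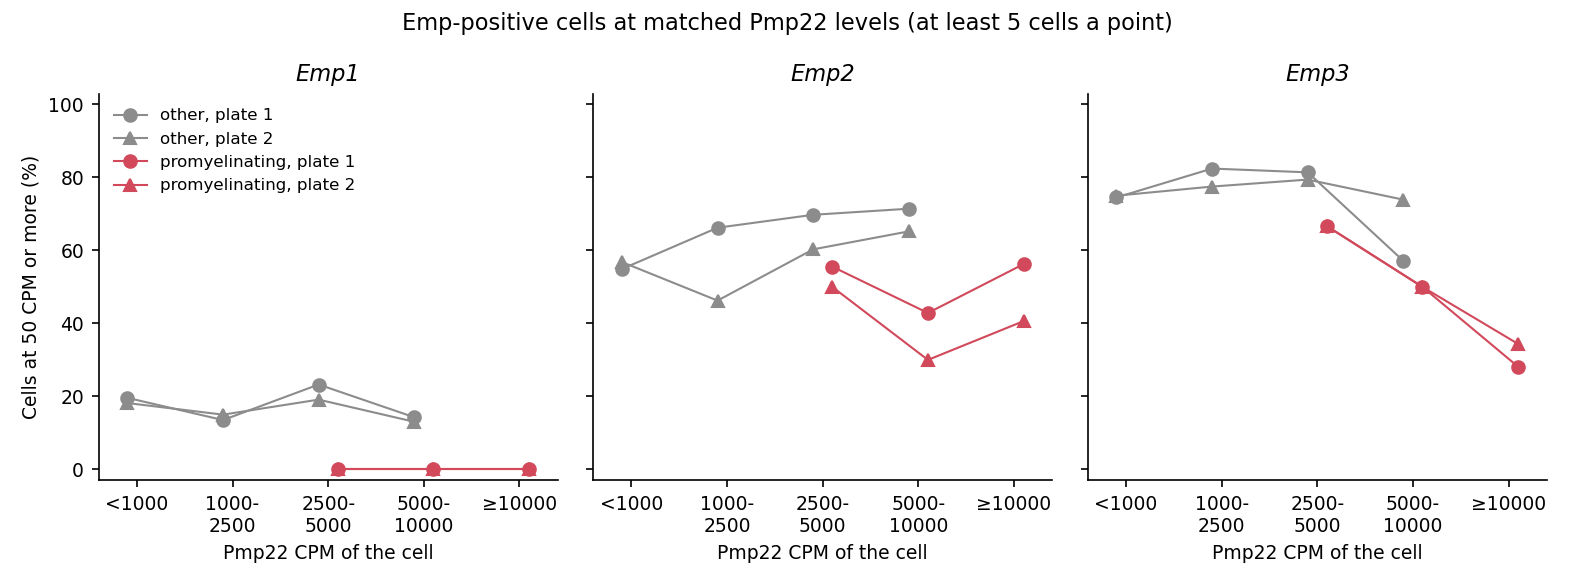
Share of cells at 50 CPM or more of each Emp gene (percent) in bins of the cell's own Pmp22 level, for other (grey) and promyelinating cells (red) of plate 1 (circles) and plate 2 (triangles), for bins of 5 cells or more. Emp1 lies at 0 in promyelinating cells of every bin, and Emp3 falls from 66.7% at 2500 to 5000 CPM to 28.1% and 34.4% at 10000 CPM or more.

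**Figure D4:**
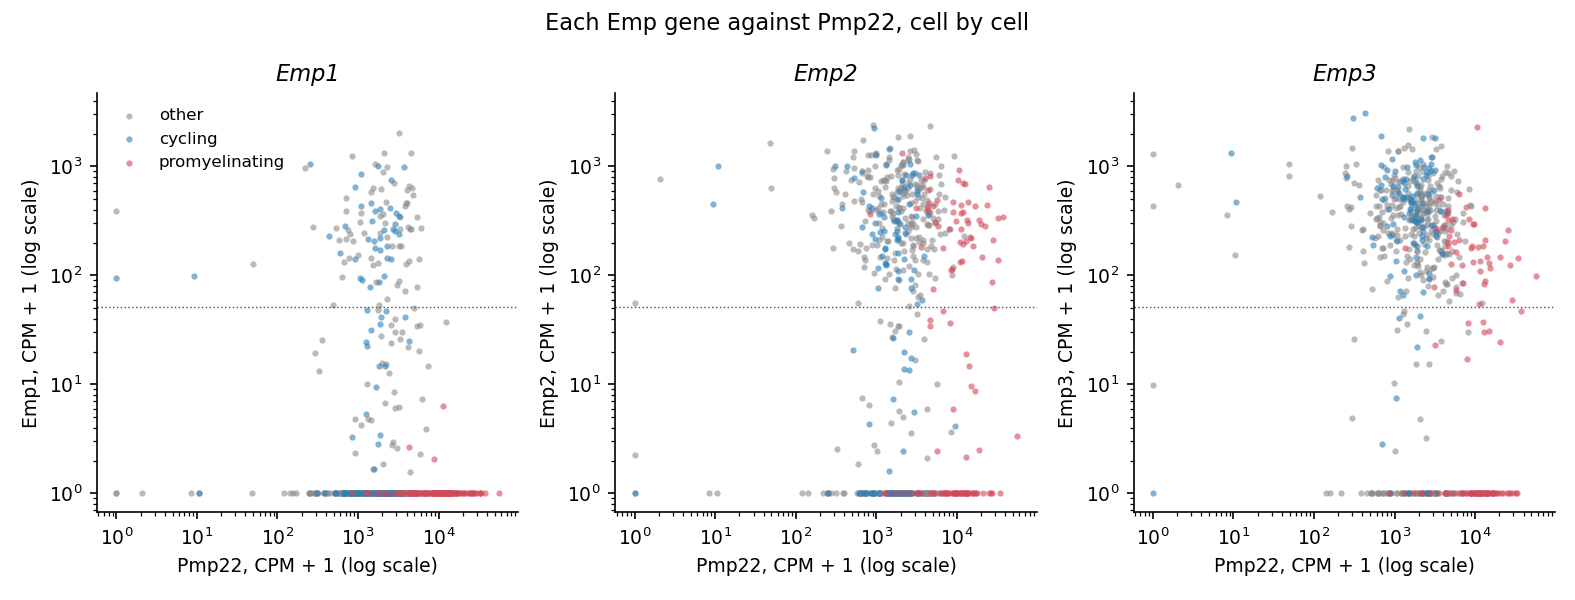
Each Emp gene against Pmp22 in single cells (CPM + 1, both axes log), coloured by class, with a dotted line at 50 CPM. Cells with both genes fill the centre of each panel, with 65 of 67 Emp1-positive other cells also positive for Pmp22, and promyelinating cells lie on the floor of the Emp1 panel.

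The number of Emp genes per cell differed between the classes. Of other cells, 39 had no Emp gene at 50 CPM, 144 had 1, 168 had 2 and 41 had all 3. Of cycling cells, 7, 25, 59 and 19 had 0, 1, 2 and 3. Of promyelinating cells, 39 had none, 59 had 1, 21 had 2 and 0 had all 3. Among other cells, Emp3 was positive in 84.8% of Emp2-positive and 68.3% of Emp2-negative cells on plate 1, and in 79.0% and 74.5% on plate 2. For Emp3 by Emp1 the plates differed in sign, at 93.5% against 75.7% on plate 1 and 72.2% against 77.9% on plate 2.

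Few cells lay close to the Ncmap gate. Of the noncycling cells, 379 had no Ncmap read, and their median Pmp22 level was 1924 CPM, with Emp1 positive in 67. The 5 cells just outside the gate, at 20 to 50 CPM of Ncmap, had a median Pmp22 level of 7061 CPM, and the 5 just inside, at 50 to 100 CPM, had 4650 CPM. Of the 13 other cells with an Ncmap read, 0 were positive for Emp1. This 0 rests on few cells and was not tested against the 67 of 379 without a read. Emp2 was positive in 4 of the 8 cells under 20 CPM of Ncmap and in 4 of the 5 at 20 to 50 CPM. Emp3 was positive in 7 of the 8 and 4 of the 5. Leaving these 13 cells out, a choice made after seeing the data, kept the calls of all 4 members against promyelinating cells.

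Among relatives of the family in the same protein superfamily, Tmem47, a junction protein, was the 1 of 4 with enough reads to be tested. It stood at 33.2 and 45.1 CPM in promyelinating and 54.0 and 58.6 CPM in other cells (log2 fold change -0.45, edgeR adjusted p = 0.858). Perp, a desmosome protein, had reads in other cells only, at 0.00578 CPM on plate 2, and Lim2 and Nkg7 had none.

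Myelin genes went with Pmp22. Of 15 listed, 10 were higher in promyelinating than in other cells and 0 lower, with a median log2 fold change of 2.35. Examples were Gldn, a nodal adhesion protein (14.19, edgeR adjusted p = 0.00167), Pmp2, a lipid-binding myelin protein (5.19, adjusted p = 0.000673), Fa2h, which hydroxylates myelin lipids (3.19, adjusted p = 0.0385), and Mag, an axon-facing adhesion molecule (3.19, adjusted p = 0.0172). Gldn had next to no reads outside the class, so its fitted value is no measure of size. Within promyelinating cells alone, the correlation of Pmp22 with Mbp was 0.57 over 59 cells and 0.73 over 60, and with Pmp2 0.75 and 0.54.

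Regulators of myelin genes moved less. In comparison with other cells, 0 of 6 passed with edgeR in either direction, 1 had an unadjusted p under 0.05 and 1 passed with DESeq2, in both cases Egr2, the main activator of peripheral myelin genes, at 1.28 (edgeR adjusted p = 0.0805). Against cycling cells Egr2 (2.01, adjusted p = 0.00562) and Pou3f1, the promyelinating-stage factor (1.67, adjusted p = 0.0184), were higher. Within promyelinating cells the correlation of Pmp22 with Egr2 was 0.04 and 0.06, and with Pou3f1 -0.43 and -0.27 over 59 and 60 cells.

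Protein partners of the family showed few differences. Of 9 listed, 0 passed with edgeR between promyelinating and other cells, 4 had an unadjusted p under 0.05 and 1 passed with DESeq2 (Itgav, lower). Among the 9 are Canx and Rer1, which act on PMP22 folding and export, and Itga6 and Itgb4, the laminin receptor that binds PMP22. Against cycling cells 1 passed, Itgav, an integrin subunit tied to EMP2, at 8.21 and 13.2 CPM in promyelinating and 43.2 and 57.1 CPM in cycling cells (log2 fold change -2.28, edgeR adjusted p = 0.0494).

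Genes of the immature stage and of the response to dissociation fell together with Emp1 and Emp3. Of 6 immature SC genes, 4 were lower in promyelinating than in other cells and 0 higher, among them Ngfr, the p75 neurotrophin receptor (-7.42, edgeR adjusted p = 0.0495), and L1cam, an adhesion molecule (-5.08, adjusted p = 0.00634). Of 8 genes that dissociation of tissue is known to induce, 4 were lower and 0 higher: Atf3 (-9.18, adjusted p = 0.0108), Ier2 (-3.35, adjusted p = 0.0196), Egr1 (-1.69, adjusted p = 0.0162) and Fos (-1.14, adjusted p = 0.0179). The list as a whole summed to 2205 and 2418 CPM in promyelinating, 5842 and 6380 CPM in other and 4726 and 7160 CPM in cycling cells. In promyelinating cells Atf3 stood at 0 and 1.09 CPM and Ngfr at 0.575 and 0 CPM. The fitted values of Atf3 and Ngfr thus depend on how a near-zero count is handled. The part of the dissociation response in the level of Emp1 and Emp3 was not tested.

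Emp1-positive and Emp1-negative other cells were set side by side. Markers of other cell types were no higher in the positive cells for most lists: summed endothelial markers stood at 0.0345 and 0.125 CPM against 3.55 and 1.20 CPM, fibroblast-like markers at 18.6 and 2.62 against 40.7 and 11.8 CPM, and immune markers at 1.97 and 14.7 against 17.7 and 21.7 CPM. Perineurial markers stood at 22.99 and 22.6 against 17.7 and 22.3 CPM and mural markers at 42.9 and 36.1 against 37.2 and 56.1 CPM. Depth was slightly lower in the positive cells, at medians of 924307 and 745518 against 958058 and 839568 reads. The SC markers stood at 735 and 512 against 658 and 542 CPM, higher on plate 1 and lower on plate 2 in the positive cells. The dissociation list was higher, at 7414 and 9624 against 5494 and 5856 CPM. In cycling cells the same split differed in sign between plates, at 4160 against 5055 CPM on plate 1 and 7482 against 6982 CPM on plate 2.

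Some cell cycle genes were higher in Emp1-positive cells outside the cycling gate. The 7 proliferation genes summed to 295 and 243 CPM in Emp1-positive and 45.1 and 62.1 CPM in Emp1-negative other cells. Birc5, Cdk1, Cenpf and Tpx2 were higher in the positive cells on both plates, Ccna2 was lower on both, and Ccnb1 and Nusap1 differed in sign between plates. Few cells carried the sum, since Cenpf reached 50 CPM in 5 and 11 other cells. The genes most like Emp1 across all cells of a plate, by Pearson r of log2(CPM + 1) over 287 and 334 cells and 5367 genes, were Ccnb2 (0.33 and 0.35), Cenpf (0.35 and 0.32), Birc5 (0.30 and 0.32), Cenpa (0.30 and 0.35) and Lrrc61 (0.32 and 0.29). Ccnb2 is a mitotic cyclin, Cenpf and Cenpa are centromere proteins and Birc5 belongs to the chromosomal passenger complex. The cells of a plate share its handling and these genes share the class differences, so the values were also taken within classes.

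Within cycling cells, Emp1 was positive in 16 of 41 Cenpf-positive and 2 of 12 Cenpf-negative cells on plate 1, and in 17 of 38 and 3 of 19 on plate 2. For Ccnb2 the counts were 15 of 41 against 3 of 12, and 18 of 42 against 2 of 15. Birc5 showed no split on plate 1, with 16 of 47 against 2 of 6, and 19 of 48 against 1 of 9 on plate 2. For Cenpa the counts were 16 of 42 against 2 of 11, and 16 of 41 against 4 of 16, and for Lrrc61 18 of 50 against 0 of 3, and 20 of 54 against 0 of 3. Cdk1, which is made from S phase onward, had correlations of -0.12 and -0.02 with Emp1 over 53 and 57 cycling cells. Ccna2 had 0.04 and 0.02, Nusap1 0.17 and 0.05, and Ccnb1 0.21 and 0.19. Tpx2 had 0.17 and 0.36, Birc5 0.12 and 0.27, and Cenpf 0.26 and 0.30. Ccna2 and Nusap1 share exon bases with Exosc9 and Oip5 on the opposite strand, and reads there cannot be told apart without strand. Emp3 in the same cycling cells had 0.26 and 0.34 with Birc5, 0.23 and 0.30 with Tpx2, and 0.27 and 0.13 with Cenpf. With Ccnb1 it had 0.19 and 0.07, with Ccna2 0.26 and 0.05, with Cdk1 -0.05 and 0.20, and with Nusap1 -0.12 and 0.16. Positive values were thus not particular to Emp1. Among other cells, Emp1 was positive in 5 of 9 Ccnb2-positive cells against 26 of 166 Ccnb2-negative cells on plate 1. On plate 2 the counts were 5 of 12 against 31 of 205. Most Emp1-positive other cells, 26 of 31 and 31 of 36, thus had no Ccnb2 at 50 CPM. The genes given with counts were singled out by their likeness in the same cells, so the counts describe and do not test it.

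The genes most like the other members were drawn by the same rule. For Pmp22 they included Ncmap (0.63 and 0.53), Mag (0.60 and 0.51), Gm37389 (0.63 and 0.49) and Pmp2 (0.63 and 0.49), where Gm37389 overlaps Pmp2 on the same strand and shares its reads. Ncmap defines the promyelinating gate, so its pooled value restates the split of the cells, and within other cells it was 0.11 and 0.13. For Mag it was 0.33 and 0.33 within other cells. The least like were Ednrb, an endothelin receptor (-0.49 and -0.46), Dbi, Postn, Lrrc61 and Rarres2. For Emp3 the most alike were Dbi (0.38 and 0.36), Lgals1, which encodes galectin-1 (0.41 and 0.35), Rarres2 (0.33 and 0.35), Lrrc61 (0.32 and 0.35) and Sbspon (0.35 and 0.32). Ncmap, the gate gene, was the least alike (-0.40 and -0.37). Within promyelinating cells Ncmap had -0.03 and -0.24 with Emp3, and within other cells 0.10 and -0.05. Lrrc61 and Rarres2 overlap on opposite strands, so without strand their reads cannot be told apart. Dbi, Rarres2 and Lrrc61 were among the least like Pmp22 and the most like Emp3 over all cells, but less so within classes. With Pmp22, Lrrc61 had -0.20 and -0.28 in promyelinating, -0.04 and -0.11 in other and -0.01 and 0.007 in cycling cells. With Emp3, Rarres2 had 0.18 and 0.24 in other, -0.09 and 0.08 in promyelinating and 0.02 and 0.16 in cycling cells.

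For Emp2 the values were weaker, with Trp53i13 (0.23 and 0.22), Sparc, a secreted matrix-binding glycoprotein (0.33 and 0.20), Klf6 (0.29 and 0.20), Rab31 (0.25 and 0.19) and Npdc1 (0.21 and 0.19) the most alike. Within all 3 classes and on both plates Trp53i13, Sparc, Klf6 and Rab31 kept a positive sign, and Npdc1 did so except in promyelinating cells of plate 1 (-0.014). Sparc, for example, had 0.56 and 0.25 in cycling, 0.31 and 0.22 in promyelinating and 0.24 and 0.16 in other cells. The least alike with Emp1 were Cldn19, a claudin of myelinating SCs (-0.29 and -0.28), Mpp6, Fa2h, Pmp2 and Gm37389.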

How the data were processed

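Single SCs sorted by eYFP from P1 sciatic nerve were sequenced with Smart-Seq2, and the authors deposited, for each well, whole-number read counts by gene without normalization. The submitters' processing notes name bcl2fastq, STAR 2.6.1c, featureCounts and GRCm38.p5, and the study's methods name another STAR version and a human assembly, whereas the deposited gene IDs are those of mouse. Use of strand is not given in the sources used here. Without it or molecular identifiers, intervals and floors cover counting error only.

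Symbols came from GENCODE M21 (25587 of 25700 IDs matched). Wells under 1500 detected genes were set aside, and reads were summed per plate and class into 6 sums of 45073128 to 172878954 reads. These were tested with edgeR 4.0.16 (TMM, filterByExpr, robust quasi-likelihood fit, two-sided, Benjamini-Hochberg over 13292 genes, R 4.3.3), checked on simulated counts. Plate and class sums leave 3 residual degrees of freedom. Each SE was taken back from the test, as the absolute log2 fold change divided by the square root of the F statistic. A cell was positive at 50 CPM. Same-plate sums come from the same pool of pups, and plate deviations correlated at 0.13, 0.23 and 0.19 between classes over 3705 genes. The plate as a block, DESeq2 1.42.0, limma 3.58.1 on log2(mean CPM + 1), no filter, other gene minimums and gates, and cells thinned to 100000 reads were alternatives. Named genes were the 4 members, the gate genes, up to 4 genes per list and comparison by largest fold change that passed, and the 5 genes most and 5 least like each member among genes at 50 CPM in 10% of cells of each plate. The members and lists were chosen with earlier results of these data known. Some genes that this rule names are not reported here. Python 3.11.15 was used for the rest.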

Additional observations from a re-analysis of the deposited data

Results flagged for a closer look

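The 122 wells set aside for having under 1500 detected genes held all 4 genes, although no comparison above used them. Their summed levels were 2914 CPM for Pmp22, 42.7 CPM for Emp1, 398 CPM for Emp2 and 588 CPM for Emp3. These wells had a median of 6484 reads on plate 1 and 986 on plate 2, and were put in no class. Emp1 was uneven between them, at 4.87 CPM on plate 1 and 197 CPM on plate 2, where 2 wells held all of its reads.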

How the results depend on the processing

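Of 112 fold changes of the 4 genes refitted under other settings, 111 kept direction and side of the threshold. The exception was Emp2 between promyelinating and other cells, which passed with DESeq2 at -0.80. The plate as a replicate block changed no call of a member. For promyelinating minus other, cycling minus other and promyelinating minus cycling cells, the counts of genes called were 238, 134 and 791 with edgeR, 1017, 807 and 2322 with DESeq2, 521, 317 and 1290 with no filter on low counts, and 379, 232 and 1343 with limma on mean CPM. With cells thinned to 100000 reads the counts against other cells were 370 and 219. The cause was not tested.

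With 1 plate left out no residual spread is left, so only the ratio on the remaining plate could be given and no count of calls. In log2, Pmp22 ranged from 2.17 to 2.48, Emp1 from -10.11 (a bound set by the floor of 3 reads, as plate 2 had none) to -9.02, Emp2 from -1.11 to -0.72 and Emp3 from -2.04 to -1.92 for promyelinating over other cells. For cycling over other cells the ranges were -0.49 to -0.32, 0.19 to 1.21, -0.61 to -0.057 and 0.43 to 0.72, in the same order. For promyelinating over cycling cells they were 2.66 to 2.80, -11.32 (the same kind of bound) to -9.21, -0.66 to -0.50 and -2.76 to -2.36.

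The share of positive cells in promyelinating minus other cells, -17.2 percentage points for Emp1, was -24.7 at 1 read, -22.5 at 10 CPM and -14.9 at 100 CPM as the limit of a positive cell. For Emp2, -14.8 points became -9.45 at 1 read, -11.3 at 10 CPM and -18.5 with at least 2500 detected genes. For Emp3, -37.6 became -33.5 at 10 CPM and -42.7 with at least 2500 detected genes. For Pmp22, 1.95 became 0.747 at 1 read. With gates at 20 CPM, Pmp22 led the family in 99.2% of promyelinating cells, against 100% otherwise and with either plate left out. With a plate left out, the share differences ranged from 1.14 to 2.76 for Pmp22, -17.7 to -16.6 for Emp1, -16.5 to -13.2 for Emp2 and -39.9 to -35.3 for Emp3, and Pmp22 led in 62.3% to 80.7% of cycling and 76.0% to 85.7% of other cells.

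The difference in Emp-positive share between Pmp22-positive and Pmp22-negative other cells rests on 3 to 12 negative cells and changed freely. For Emp1 it was -8.07 points, 17.8 with at least 2500 detected genes, and -17.2 to 17.9 with a plate left out. For Emp2, which ranged from 4.98 to 14.2 with a plate left out, 9.11 points became -1.37 at 1 read, 28.3 at 10 CPM, 19.01 at 100 CPM, 20.5 after thinning, 25.3 with at least 1000 and 40.1 with at least 2500 detected genes. For Emp3, -9.90 points became 1.24 with at least 1000 detected genes and 2.38 with the split at the median Pmp22 level, and ranged from -21.4 to -6.56 with a plate left out.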
